A study of Mus musculus with 10 samples.

Results

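The mitochondria-encoded transcripts are the 37 genes of the mouse mitochondrial genome, taken from the deposited count table as the rows whose symbol begins with mt-. They are 37 of the 57010 genes in the table and comprise 13 mRNAs, 2 rRNAs and 22 tRNAs. RNA was sequenced from whole mammary tumour tissue of untreated mice that all carry the MMTV-PyMT transgene, a viral oncogene driven in mammary epithelium by the promoter of mouse mammary tumour virus. The knockout group (PyMT; RHBDL4 -/-) and the wild-type group (PyMT; RHBDL4 +/+) held 5 libraries each, all from tumours taken 5 weeks after tumour onset. RHBDL4 is an intramembrane protease made from the gene Rhbdd1, and the series asks how its loss changes these tumours. The sources used here do not give the age of the mice.

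Mitochondrial DNA is a small circle that is transcribed from both strands as long precursors, which are cut at the tRNAs that lie between most genes. The mRNAs encode subunits of respiratory complexes I, III and IV and of ATP synthase, the rRNAs build the mitochondrial ribosome, and all other proteins of the organelle come from nuclear genes. Most mature mitochondrial mRNAs and the rRNAs carry short A tails, mature tRNAs do not, and mt-Nd6 lacks a stable tail, which matters for libraries that, like these, were selected for poly(A).

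By the annotation 28 members are coded as heavy-strand transcripts (12 mRNAs, both rRNAs and 14 tRNAs) and 9 as light-strand transcripts (mt-Nd6 and 8 tRNAs). Several members have near-identical copies in the nuclear genome, and their sequences are shown because they bear on how a read can be assigned. The lines below, from the GENCODE transcripts of build GRCm38, set the first 60 bases of mt-Co2 (chrM:7013-7072), mt-Nd3 (chrM:9459-9518) and mt-Co1 (chrM:5328-5387), and bases 61 to 120 of mt-Cytb (chrM:14205-14264), above a nuclear copy of each. Gm28661 (chr1:24615506-24615565), Gm28438 (chr1:24613060-24613119) and Gm13340 (chr2:22589588-22589647) are shown from the minus strand and Gm11410 (chr4:80004049-80004108) from the plus strand. Capitals mark bases that differ between the pair.
mt-Co2: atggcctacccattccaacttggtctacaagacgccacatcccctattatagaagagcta
Gm28661: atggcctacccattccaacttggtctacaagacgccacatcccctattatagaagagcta
mt-Nd3: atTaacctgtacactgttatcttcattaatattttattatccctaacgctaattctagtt
Gm28438: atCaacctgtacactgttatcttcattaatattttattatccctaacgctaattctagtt
mt-Co1: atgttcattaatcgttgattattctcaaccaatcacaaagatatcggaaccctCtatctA
Gm13340: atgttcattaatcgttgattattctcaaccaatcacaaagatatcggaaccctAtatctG
mt-Cytb: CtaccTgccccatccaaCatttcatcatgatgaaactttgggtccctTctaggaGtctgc
Gm11410: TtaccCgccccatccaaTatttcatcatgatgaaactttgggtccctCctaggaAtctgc

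These stretches differed at 0 positions for mt-Co2, 1 for mt-Nd3, 2 for mt-Co1 and 5 for mt-Cytb. One run of predicted genes on chromosome 1 copies a block of the mitochondrial genome. Within that block, mt-Co2, mt-Atp6, mt-Co3 and mt-Nd4l matched their copies at 100% of the aligned bases, which cover 99.0% to 99.9% of each gene. The copy of mt-Nd3, Gm28438, differed at a single base (T3C, counted from 1 at the first base of mt-Nd3), an identity of 99.71%. mt-Atp8 has no annotated copy of its own. It starts in a gap of 233 bases between the copied parts of mt-Co2 and mt-Atp6. That gap has the same length, 233 bases, on chromosome 1. The last 43 bases of mt-Atp8 overlap mt-Atp6 and lie within the copied part of that gene. These 6 genes are called the copied mRNAs here. mt-Atp8 is placed among them by its position, since 0% of its stretches of 50 bases occur in an annotated nuclear transcript. The 43 bases it shares with mt-Atp6 are too short to hold such a stretch. The other 7 mRNAs (mt-Nd1, mt-Nd2, mt-Co1, mt-Nd4, mt-Nd5, mt-Nd6 and mt-Cytb) are called the less copied mRNAs: fewer than 80% of their stretches of 50 bases occur in an annotated nuclear transcript, with 51.1% for mt-Co1, 62.2% for mt-Nd4, at most 8.2% for mt-Nd2 and mt-Nd5, and 0% for mt-Nd1, mt-Nd6 and mt-Cytb. The sources used here do not say how reads with several matches were counted.

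The 10 libraries held 25.7 to 43.3 M (mega) counts. Rhbdd1, the targeted gene, stood at 13.2 to 22.3 CPM (counts of a gene per M counts of its library, with TMM scaling) in the knockout libraries and at 25.0 to 45.3 CPM in the wild-type libraries, without overlap, and without wild-type replicate 5 at 14.1 to 23.6 and 35.5 to 47.5 CPM. Its log2 fold change of -1.05 ± 0.20 (SE) was not called by edgeR (quasi-likelihood adjusted p = 0.669). Wild-type replicate 5 stood apart from the other 9 libraries: luminal epithelial markers took 0.00765% of its counts against 0.454% to 0.806% elsewhere, and skeletal muscle markers 8.75% against at most 0.168%. Comparisons are therefore given with and without it. Each library has a batch label of its own, so batch and group cannot be told apart. Nothing in the labels ties libraries to animals, and 3 pairs of library names begin with the same number, so p-values measure only the spread between these samples.

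Mitochondria-encoded transcripts took a similar share of the counts in 9 of the 10 libraries and a far larger one in wild-type replicate 5. In knockout replicates 1 to 5 the 37 genes took 4.17%, 4.28%, 4.11%, 4.58% and 4.05% of all counts. In wild-type replicates 1 to 5 they took 3.25%, 4.16%, 3.81%, 3.62% and 17.5%. The last value was 4.27 times the median of the other 9 libraries, 4.11%, and its 95% Wilson interval ran from 17.53% to 17.56%. That interval covers counting error only.

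With all 10 libraries the knockout mean was 4.24% ± 0.209 and the wild-type mean 6.48% ± 6.20 (SD, n = 5 each), 2.24 points apart with knockout lower. Without wild-type replicate 5 the wild-type mean was 3.71% ± 0.379 (SD, n = 4), and knockout was higher by 0.527 points. The groups overlapped both ways, since wild-type replicate 2 (4.16%) lay above knockout replicates 3 and 5. The direction of the difference in mean share thus turned with a single library. In bulk tissue, fewer cells of a type and less RNA per cell cannot be told apart.

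**Figure D1:**
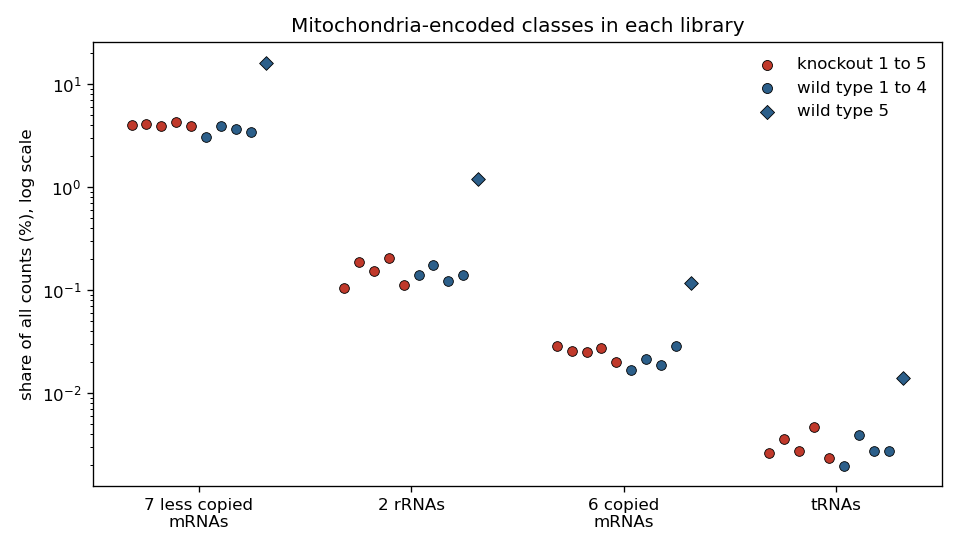
Share of all counts (%, log scale) taken by the 7 less copied mRNAs, the 2 rRNAs, the 6 copied mRNAs and the tRNAs, with 1 point per library. Wild-type replicate 5 (diamond) is the highest library in all 4 classes, at 16.2%, 1.21%, 0.117% and 0.0142%.

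The classes were not raised by the same factor in wild-type replicate 5. The less copied mRNAs took 16.2% of its counts, 4.13 times the median of the other 9 libraries, and the copied mRNAs 0.117%, or 4.62 times. The rRNAs took 1.21%, or 8.52 times, and the tRNAs 0.0142%, or 5.16 times. Of the 16 members that passed the low-count filter, the factor was lowest for mt-Nd5 (3.18) and highest for mt-Rnr2 (9.35), the RNA of the large mitochondrial ribosomal subunit. By strand it was 3.90 for the light-strand genes and 4.28 for the heavy-strand genes. These factors compare 1 library with the others and have no replicate check.

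Other genes moved with that library. A list of 30 nuclear genes of the respiratory chain and ATP synthase took 1.64% of its counts against 0.534% to 0.631% elsewhere. The muscle isoforms of cytochrome oxidase (Cox6a2, Cox7a1 and Cox8b) took 0.0680% against at most 0.00175%, and white adipocyte markers 0.972% against at most 0.244%. Brown adipocyte markers took 0.205% against at most 0.00547%, with Ucp1, which defines that cell type, listed at 0 in at least 1 library. The level of Ucp1 in wild-type replicate 5 is not given here. Cox8b is in the brown adipocyte list as well as among the muscle isoforms, so these shares are not separate. The part of these tissues in the mitochondrial share was not tested.

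Within the mitochondrial counts, the shares of the classes overlapped between the groups. rRNAs made up 2.50%, 4.34%, 3.76%, 4.45% and 2.76% of the mitochondrial counts in knockout replicates 1 to 5 and 4.30%, 4.17%, 3.26%, 3.93% and 6.91% in wild-type replicates 1 to 5. The means were 3.56% ± 0.898 in knockout and 4.51% ± 1.40 in wild type (SD, n = 5 each), or 3.91% ± 0.464 without wild-type replicate 5, so the groups overlapped both ways. Of the rRNAs, mt-Rnr1 alone made up 0.988% ± 0.182 in knockout and 1.44% ± 0.338 in wild type. Without wild-type replicate 5 the wild-type mean of mt-Rnr1 was 1.33% ± 0.28, and its groups also overlapped both ways. For mt-Rnr2 the means without that library were 2.58% in both groups. tRNAs made up 0.0752% ± 0.0189 in knockout and 0.0768% ± 0.0125 in wild type, and the copied mRNAs 0.599% ± 0.0672 and 0.598% ± 0.125 (SD, n = 5 each).

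The light-strand share is the class with the clearest offset between the groups, and it was still not free of overlap. Light-strand genes made up 2.98%, 3.05%, 2.83%, 3.30% and 2.83% of the mitochondrial counts in knockout replicates 1 to 5 and 2.20%, 2.60%, 2.77%, 2.85% and 2.55% in wild-type replicates 1 to 5. The means were 3.00% ± 0.196 and 2.60% ± 0.253 (SD, n = 5 each), and 2.61% ± 0.291 without wild-type replicate 5. Wild-type replicate 4 (2.85%) lay above knockout replicates 3 and 5. As a share of all counts, the light-strand genes took 0.115% to 0.151% in knockout and 0.0716% to 0.108% in wild-type replicates 1 to 4, without overlap, and 0.447% in wild-type replicate 5. Nearly all of this class is mt-Nd6, which on its own took 2.92% ± 0.179 of the mitochondrial counts in knockout and 2.52% ± 0.249 in wild type (SD, n = 5 each).

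Per length, the 13 mRNAs formed 2 tiers. Over the 9 libraries without wild-type replicate 5, the mean level of the less copied mRNAs ran from 1368 CPM per kilobase (mt-Nd5) to 8162 CPM per kilobase (mt-Co1). The copied mRNAs ran from 12.7 CPM per kilobase (mt-Nd4l) to 119 CPM per kilobase (mt-Co2). The lowest of the first tier was 11.5 times the highest of the second, and the ratio of the tier medians was 55.0. mt-Atp8 lay at 44.0 CPM per kilobase, so that by its stretches of 50 bases alone it would be a low member of the first tier and the tiers would overlap. Both rRNAs lay between the tiers, at 619 (mt-Rnr2) and 447 (mt-Rnr1) CPM per kilobase, as did mt-Tp at 425. The tiers do not follow the complexes: mt-Co1 and mt-Co2 encode subunits of the same enzyme, cytochrome oxidase, at 8162 and 119 CPM per kilobase.

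Among the less copied mRNAs the order of the mean levels per length was mt-Co1, mt-Cytb, mt-Nd1, mt-Nd2, mt-Nd4, mt-Nd6 and mt-Nd5. The order held between neighbours in all 10 libraries for mt-Co1 over mt-Cytb, mt-Nd1 over mt-Nd2, mt-Nd2 over mt-Nd4 and mt-Nd6 over mt-Nd5. It held in 8 of 10 libraries for mt-Cytb over mt-Nd1 and in 9 of 10 for mt-Nd4 over mt-Nd6. The level of mt-Co1 and mt-Nd4 counts stretches that also occur in nuclear transcripts. Their copies on chromosome 1, Gm29216 (98.78% identical over 492 bases, 31.8% of mt-Co1) and Gm28439 (100% over 63.6% of mt-Nd4), held at most 0.486% and 0.998% of the counts of each pair. The copy of mt-Co1 on chromosome 2, Gm13340, held 0.790% to 1.23%. If reads that match both loci were dropped, both genes of a pair lose them, so these shares do not measure that loss. Its part in the order per length was not tested.

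**Figure D2:**
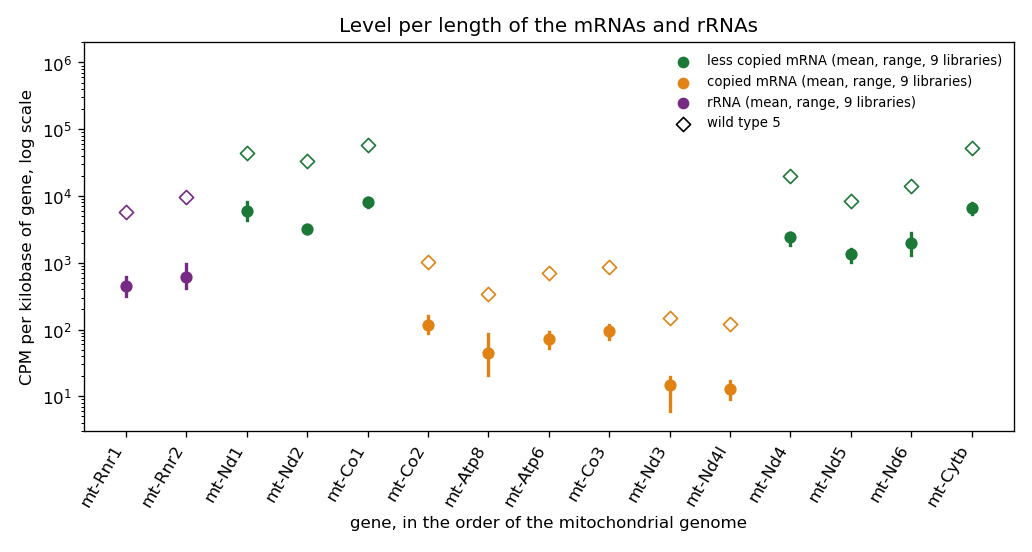
Level per gene length (CPM per kilobase, TMM-scaled, log scale) of the 13 mRNAs and 2 rRNAs in genome order, with points at the mean and bars over the range of 9 libraries, and diamonds for wild-type replicate 5. The copied mRNAs lie at 12.7 to 119 CPM per kilobase and the less copied mRNAs at 1368 to 8162 CPM per kilobase.

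For the copied mRNAs the predicted genes of the chromosome 1 copy drew counts of a like size. The copy held 26.3% to 30.3% of the counts of the pair for mt-Co2, 49.7% to 53.3% for mt-Atp6, 27.0% to 30.6% for mt-Co3, 60.7% to 78.0% for mt-Nd3 and 39.0% to 48.6% for mt-Nd4l. A further copy of mt-Co2 on chromosome 2, Gm13341, held 34.1% to 39.3% of the counts of its pair. The copies were also high in wild-type replicate 5, at 4.57 to 5.60 times the median of the other libraries for the 7 predicted genes on chromosome 1. No copy was called between the groups in either fit (edgeR adjusted p = 0.521 or more without wild-type replicate 5). Whether a read of these 5 genes came from the mitochondrial or the nuclear locus cannot be told apart from the counts, and their part in the low levels was not tested.

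With all 10 libraries, edgeR called 0 of the 16 members tested in the comparison of knockout with wild type, where 0% of all 18577 genes tested were called (adjusted p = 0.669 to 0.703 for the members). One member, mt-Rnr1, had an unadjusted p under 0.05 in edgeR, against 7.00% of all genes. limma-voom with sample quality weights also called 0 members, with 0 at that unadjusted p. DESeq2 gave fold changes for the members but no adjusted p, so its 0 called is not a test of them. All 16 log2 fold changes were below 0, against 56.2% of all genes, with a median of -1.20 (range -1.90 to -0.88) beside -0.06 over all genes. The groups overlapped for all 16, where 0.807% of all genes were free of overlap with knockout higher and 1.18% with knockout lower. The SD of the wild-type group exceeded its mean for every one of these 16 genes.

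In the fit without wild-type replicate 5, edgeR again called 0 of the 16 members, where 0.0105% of all 19016 genes were called (adjusted p = 0.320 to 0.977 for the members). One member, mt-Nd6, had an unadjusted p under 0.05 in edgeR, against 11.6% of all genes. DESeq2 and limma-voom with sample quality weights called 0 members here too, with 3 and 4 at that unadjusted p. The log2 fold change was above 0 for 15 of the 16, against 53.2% of all genes, with a median of 0.25 (range -0.20 to 0.43) beside 0.03 over all genes. Only mt-Rnr1 was below 0, as were 46.8% of all genes. The groups did not overlap for 2 members, mt-Nd6 and mt-Cytb, both with knockout higher, where 2.00% of all genes were free of overlap with knockout higher and 3.44% with knockout lower. Since the members are cut from shared precursors, they are not independent of each other.

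**Figure D3:**
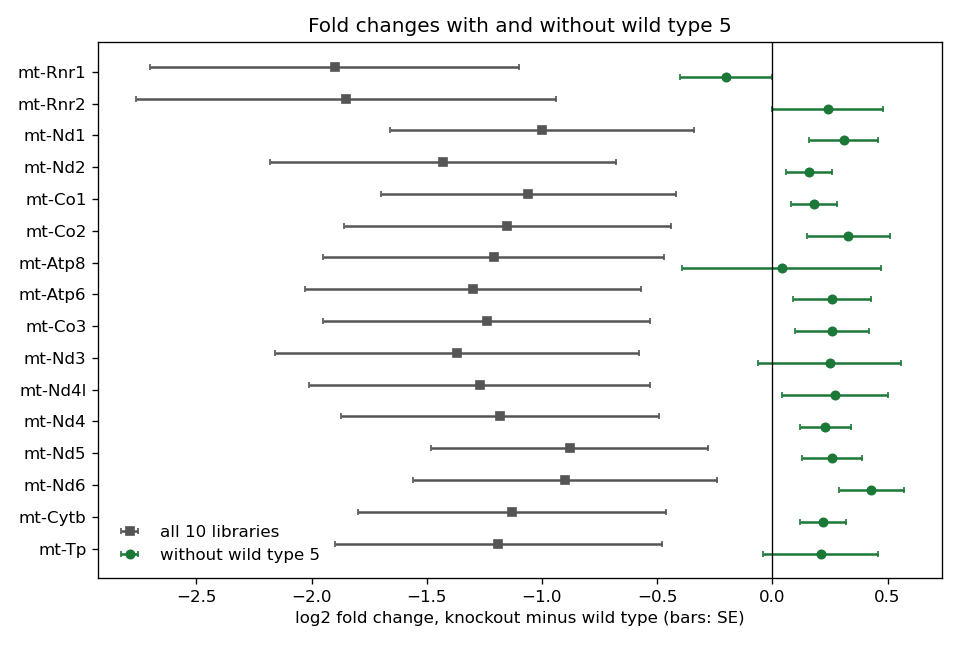
log2 fold change of knockout minus wild type for the 16 members tested, with bars of 1 SE, from the fit of all 10 libraries (squares) and of the 9 libraries without wild-type replicate 5 (circles). All 16 squares lie below 0, from -1.90 to -0.88, and 15 of 16 circles above 0, up to 0.43.

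The 2 rRNAs, components of the mitochondrial ribosome, stood lower per length than the less copied mRNAs in these libraries selected for poly(A). The part of that selection in the difference was not tested. mt-Rnr1 (chrM:70-1024, small subunit) stood at 307, 475, 408, 496 and 302 CPM in knockout replicates 1 to 5 and at 492, 584, 332, 443 and 5592 CPM in wild-type replicates 1 to 5. The groups overlapped, with the lowest values in knockout replicates 1 and 5. Its log2 fold change was -1.90 ± 0.80 (SE) with all 10 libraries and -0.20 ± 0.20 without wild-type replicate 5 (edgeR adjusted p = 0.669 and 0.726).

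mt-Rnr2 (chrM:1094-2675, large subunit) stood at 659, 1214, 1126, 1515 and 713 CPM in the knockout libraries and at 890, 998, 816, 884 and 15202 CPM in the wild-type libraries. Its knockout values spread on both sides of wild-type replicates 1 to 4, which lay close together. The log2 fold change was -1.85 ± 0.91 with all 10 libraries and 0.24 ± 0.24 without wild-type replicate 5 (edgeR adjusted p = 0.669 and 0.717). The ratio of mt-Rnr1 to mt-Rnr2 counts ran from 0.328 to 0.467 in knockout and from 0.368 to 0.585 in wild type, with overlap.

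Complex I, the NADH dehydrogenase that feeds electrons into the chain, has 7 subunits among the mRNAs. mt-Nd6 (chrM:13552-14070), the only mRNA of the light strand, stood at 1130, 1153, 1127, 1446 and 1019 CPM in knockout replicates 1 to 5. It stood at 689, 952, 953, 937 and 7421 CPM in wild-type replicates 1 to 5, so that each knockout library lay above wild-type replicates 1 to 4. Without wild-type replicate 5 its means were 1254 ± 174 CPM (SD, n = 5) and 931 ± 139 CPM (SD, n = 4), a log2 fold change of 0.43 ± 0.14 (SE), the largest of the members, which was not called (edgeR adjusted p = 0.320). With a further library left out, this fold change ran from 0.32 without wild-type replicate 1 to 0.48 without knockout replicate 5. Over all the alternatives its lowest value was 0.29, and its adjusted p ran from 0.102 to 0.932.

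The groups without wild-type replicate 5 did not overlap for mt-Nd6 under any of 4 scalings: TMM from 9 or from 10 libraries, unscaled totals, and totals without the mitochondrial counts. As a share of the counts of the 7 less copied mRNAs they did overlap, at 2.87% to 3.37% in knockout and 2.25% to 2.92% in wild type. mt-Nd6 overlaps mt-Nd5, coded on the other strand, by 14 bases, and heavy-strand RNA runs across its locus. The sources used here do not state whether strand entered the counting, so reads of the 2 strands at this locus may not be separated.

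**Figure D4:**
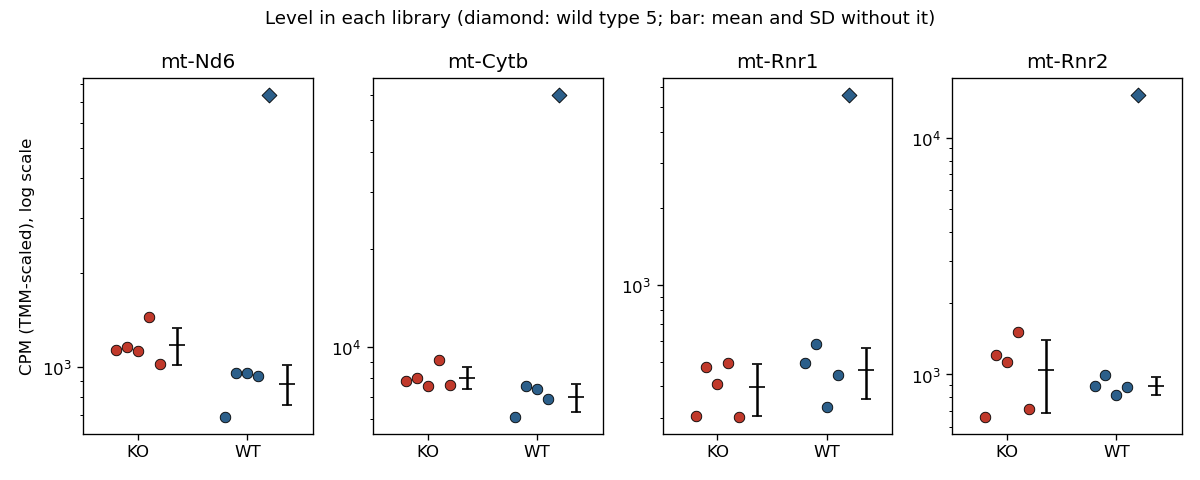
Level (CPM, TMM-scaled, log scale) of mt-Nd6, mt-Cytb, mt-Rnr1 and mt-Rnr2 in each library, with bars at the mean and SD of 5 knockout libraries and of wild-type replicates 1 to 4, and a diamond for wild-type replicate 5. For mt-Nd6 the 5 knockout libraries sit between 1019 and 1446 CPM, above wild-type replicates 1 to 4.

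mt-Nd2 had the largest fold change of an mRNA with all 10 libraries, -1.43 ± 0.75, and mt-Nd5 the smallest, -0.88 ± 0.60 (edgeR adjusted p = 0.669 and 0.691). For mt-Nd2 the knockout libraries gave 3455, 3620, 3077, 3795 and 3387 CPM and the wild-type libraries 2882, 3290, 3349, 3016 and 34173 CPM. For mt-Nd5 they gave 2658, 2679, 2368, 2907 and 2772 CPM and 1849, 2747, 2372, 2106 and 15597 CPM. The value that sets these genes apart is wild-type replicate 5, and without it their fold changes were 0.16 ± 0.10 and 0.26 ± 0.13 with overlapping groups. mt-Nd2 made up 12.3% of the counts of the less copied mRNAs in that library, against 7.90% to 9.88% in the other 9.

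The other complex I mRNAs were not called and their groups overlapped in both fits. In the fit of 9 libraries the mean of mt-Nd1 was 6645 ± 1224 CPM over knockout libraries (SD, n = 5) and 5343 ± 718 CPM over wild-type libraries (SD, n = 4), a log2 fold change of 0.31 ± 0.15, from -1.0 ± 0.66 with all 10 libraries. mt-Nd4 stood at 3752 ± 308 and 3196 ± 340 CPM (0.23 ± 0.11, from -1.18 ± 0.69). The 2 copied mRNAs of this complex were the lowest mRNAs per length: mt-Nd3 stood at 5.85 ± 1.15 and 4.91 ± 1.90 CPM (0.25 ± 0.31, from -1.37 ± 0.79) and mt-Nd4l at 4.32 ± 0.932 and 3.60 ± 0.633 CPM (0.27 ± 0.23, from -1.27 ± 0.74).

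mt-Cytb (chrM:14145-15288) encodes cytochrome b, the mitochondria-encoded subunit of complex III. It stood at 7862, 8011, 7562, 9103 and 7657 CPM in knockout and at 6063, 7599, 7410, 6901 and 60102 CPM in wild type. Wild-type replicate 2 thus lay just above knockout replicate 3 on this scale. Without wild-type replicate 5, with scaling factors from the 9 libraries, the means were 8582 ± 685 CPM (SD, n = 5) and 7376 ± 731 CPM (SD, n = 4), and the groups, at 8047 to 9753 and 6362 to 7952 CPM, did not overlap. They overlapped under the other 3 scalings. The log2 fold change was 0.22 ± 0.10 (edgeR adjusted p = 0.456), from -1.13 ± 0.67 with all 10 libraries.

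Cytochrome oxidase, complex IV, has 3 subunits here, of which mt-Co1 (chrM:5328-6872) had the highest mean level of the 37 genes. mt-Co1 stood at 13509, 12320, 14491, 14033 and 11898 CPM in knockout and at 12414, 13278, 11037, 10509 and 90825 CPM in wild type. The groups overlapped, and the fold change went from -1.06 ± 0.64 to 0.18 ± 0.10 without wild-type replicate 5 (edgeR adjusted p = 0.676 and 0.524). The copied mRNAs mt-Co2 and mt-Co3 stood at 95.1 ± 18.8 against 75.7 ± 15.0 CPM and at 85.4 ± 10.1 against 71.3 ± 16.9 CPM without that library. Their fold changes went from -1.15 ± 0.71 to 0.33 ± 0.18 and from -1.24 ± 0.71 to 0.26 ± 0.16, with overlap in both fits.

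mt-Atp8 and mt-Atp6, subunits of ATP synthase whose genes share 43 bases, are both copied mRNAs. mt-Atp8 stood at 17.6, 11.2, 5.83, 6.22 and 4.32 CPM in knockout and at 4.75, 10.4, 9.68, 10.7 and 69.4 CPM in wild type. It had the smallest fold change without wild-type replicate 5, 0.04 ± 0.43 (edgeR adjusted p = 0.977), after -1.21 ± 0.74 with all 10 libraries. Its knockout values were spread more widely than those of wild-type replicates 1 to 4, with knockout replicates 1 and 2 the highest. mt-Atp6 stood at 56.4 ± 7.30 against 47.3 ± 12.5 CPM without wild-type replicate 5, and its fold change went from -1.30 ± 0.73 to 0.26 ± 0.17.

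**Figure D5:**
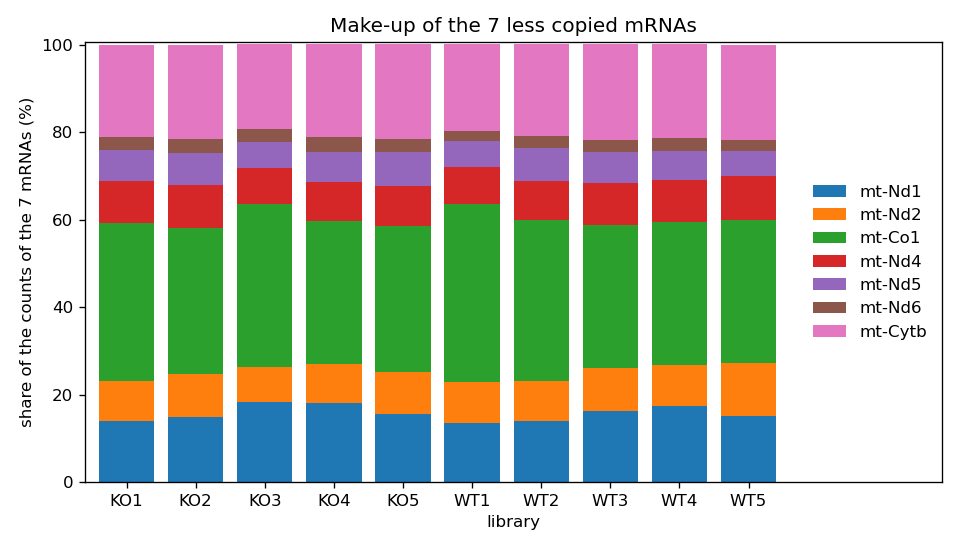
Share (%) of each of the 7 less copied mRNAs in their summed counts, as stacked bars from 0 for each of the 10 libraries. mt-Co1 is the largest part in every library, at 32.6% to 40.6%, and mt-Nd6 the smallest, at 2.25% to 3.37%.

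Within the summed counts of the less copied mRNAs, the shares of all 7 overlapped between the groups. mt-Co1 held 34.6% ± 1.93 in knockout and 35.1% ± 3.54 in wild type, and mt-Cytb 21.0% ± 0.920 and 21.2% ± 0.820 (SD, n = 5 each). The highest mt-Co1 share, 40.6%, was that of wild-type replicate 1, which also had the lowest mitochondrial share of all counts (3.25%) and the lowest share of fibroblast markers (0.0154%, against 0.155% to 0.759% in the other libraries). The part of that makeup in the result was not tested.

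Of the 22 tRNAs, the adaptors of mitochondrial translation, 18 had 0 counts in every library, among them all 14 of the heavy strand. A count of 0 allows up to 3 counts, or at most 0.117 per M counts of a library, without TMM scaling. The 4 with counts, mt-Tp, mt-Tc, mt-Te and mt-Tn, are all coded on the light strand. Their sequences, in the same annotation and 5′ to 3′ on the transcript, show how short these features are.
mt-Tp: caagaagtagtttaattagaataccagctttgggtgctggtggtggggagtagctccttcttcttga
mt-Tc: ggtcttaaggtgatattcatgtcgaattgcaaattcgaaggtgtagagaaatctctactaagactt
mt-Te: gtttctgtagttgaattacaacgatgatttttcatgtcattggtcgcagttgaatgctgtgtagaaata
mt-Tn: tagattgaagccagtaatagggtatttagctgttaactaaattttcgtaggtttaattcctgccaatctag

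mt-Tp, the proline tRNA (chrM:15356-15422), was the only tRNA that passed the low-count filter, with 640 to 3592 counts. It stood at 24.1, 32.5, 27.0, 46.1 and 20.9 CPM in knockout and at 19.3, 35.8, 25.2, 25.3 and 239 CPM in wild type. The groups overlapped, and its log2 fold change went from -1.19 ± 0.71 to 0.21 ± 0.25 without wild-type replicate 5 (edgeR adjusted p = 0.671 and 0.770). The cysteine tRNA mt-Tc held 4, 6, 14, 22 and 4 counts in knockout and 9, 8, 4, 7 and 49 counts in wild type. The glutamate tRNA mt-Te held 5, 1, 1, 0 and 1 counts in knockout and 0, 1, 3, 0 and 7 counts in wild type. mt-Tn, the asparagine tRNA, held 0 to 4 counts. These 3 were not tested, since they did not pass the low-count filter.

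Of 44 listed nuclear genes that make, cut and keep mitochondrial RNA, edgeR tested 43 and called 0 in either fit, with 6 at an unadjusted p under 0.05 with all 10 libraries (7.00% over all genes) and 7 without wild-type replicate 5 (11.6% over all genes). DESeq2 called Tfam in the first, among 50 genes in all, and Tfam and Trmt10c in the second, among 433. With sample quality weights, limma-voom called 0 of the list in the first, where it called 17 genes, and Tfam in the second, among 143. With all 10 libraries 3 were higher and 40 lower in knockout, where 56.2% of all genes were lower, with a median log2 fold change of -0.25. With that library left out, 11 were higher and 32 lower, where 46.8% of all genes were lower, with a median of -0.14, beside 0.03 over all genes. The list median lay below 0 in both fits, while that of the mitochondria-encoded genes changed sign.

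Tfam, which packages mitochondrial DNA and starts its transcription, stood at 53.3 to 55.4 CPM in knockout and 65.8 to 68.9 CPM in wild-type replicates 1 to 4 (log2 fold change -0.32 ± 0.07, edgeR adjusted p = 0.242). Trmt10c, a subunit of the mitochondrial RNase P, stood at 28.5 to 34.5 and 38.9 to 42.2 CPM (-0.36 ± 0.09, adjusted p = 0.284). The catalytic subunit of the same enzyme, Prorp, listed under its older symbol 1110008L16Rik, had a fold change of -0.30 ± 0.11. That of Fastkd2, an RNA-binding protein of mitochondria, was -0.44 ± 0.17. The groups did not overlap for these genes, nor for Mto1 and Trnt1 of the same list, as for 3.44% of all genes with knockout lower. Trmt10c, Prorp and Fastkd2 were named for their small p, and Tfam both for that and by name, with Polrmt and Lrpprc. Polrmt, the mitochondrial RNA polymerase, stood at 33.1 ± 2.00 and 32.3 ± 2.79 CPM (0.03 ± 0.10), and Lrpprc, which stabilises mitochondrial mRNAs, at 66.7 ± 13.5 and 70.4 ± 7.30 CPM (-0.08 ± 0.15), with overlap in both.

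The 30 listed nuclear genes of the respiratory chain and ATP synthase include Sdha and Sdhb of complex II and the electron carrier Cycs. Of these 30 genes, 29 were tested. With all 10 libraries all 29 had fold changes below 0 (median -1.03), against 56.2% of all genes, and with wild-type replicate 5 left out 19 were below and 10 above 0 (median -0.06), against 46.8% of all genes below. edgeR called 0 in either fit, with 4 and 5 at an unadjusted p under 0.05, against 7.00% and 11.6% of all genes. DESeq2 called Atp5b without that library, among its 433 genes, and limma-voom with sample quality weights called Cycs, among its 143, and neither called any with all 10. With all 10 libraries DESeq2 gave the mitochondria-encoded genes no adjusted p, and whether that held for these nuclear genes was not checked. Of 10 markers of mitochondrial mass, 8 were lower with all 10 libraries (median -0.65) and 7 with 9 (median -0.08). edgeR called 0 of them, with 2 and 1 at that unadjusted p, and the chaperonin Hspd1 was called by DESeq2 with 9 libraries. These 10 markers took 0.140% to 0.154% of all counts in knockout and 0.165% to 0.189% in wild-type replicates 1 to 4, without overlap. In wild-type replicate 5 they took 0.32%. Without that library Hspd1 had the largest difference in CPM, at 325 ± 61.7 in knockout and 490 ± 66.0 in wild type (SD). Vdac1 stood at 387 ± 21.1 and 406 ± 22.9 CPM, Cs at 230 ± 22.2 and 247 ± 7.77, and Tomm20 at 119 ± 25.7 and 115 ± 7.56. In that fit 3 of the 10 markers were higher in knockout, so the summed share does not speak for each marker.

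In the fit of 9 libraries, 53.2% of all genes had fold changes above 0, with knockout higher. All 11 tested skeletal muscle markers, all 10 white adipocyte, all 6 fibroblast, all 5 endothelial and all 4 tested erythroid markers were above 0. So were 3 of 4 tested brown adipocyte markers, 3 of 5 tested leukocyte markers and 5 of 10 luminal markers. edgeR and limma-voom with sample quality weights called 0 of these, and DESeq2 called Cidea of the brown adipocyte list. At an unadjusted p under 0.05 there were 2 muscle, 2 white adipocyte and 1 brown adipocyte markers in edgeR, against 11.6% of all genes, and 4, 3 and 1 in DESeq2. Muscle markers took 0.00107% to 0.168% of the counts in knockout and 0.000968% to 0.0106% in wild-type replicates 1 to 4, with Myh1, Myh4, Tnnc2, Pvalb and Myoz1 at 0 in some library. White adipocyte markers took 0.00664% to 0.244% and 0.00281% to 0.0410%, and fibroblast markers 0.328% to 0.759% and 0.0154% to 0.596%, so that the groups overlapped in all 3. Knockout replicate 4, the highest of the 9 libraries for mitochondrial share (4.58%) and mt-Nd6, was also the highest for muscle (0.168%), luminal (0.806%) and brown adipocyte markers (0.00547%). Wild-type replicate 2, the highest of wild-type replicates 1 to 4 for mitochondrial share (4.16%), was the lowest of the 9 for muscle (0.000968%). The part of these cells in the differences between the groups was not tested.

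The nuclear genes whose level followed the mitochondrial mRNA share most closely over the 9 libraries were Hacd2 (Pearson's r = 0.94), Atrn (0.93) and Pank3 (0.92). The r was computed on log2 CPM over 9866 genes whose mean reached 10 CPM and is a description of 9 libraries that share scaling and tissue makeup.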

How the data were processed

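Poly(A) RNA of 10 tumours was sequenced with a stranded kit, per the labels' protocols. The values are counts per gene that the authors deposited, raw and whole. The tools listed in the submitters' processing notes are featureCounts, STAR, FastQC and DESeq2, with the build GRCm39. The sources used here give no versions, annotation release, strand setting or rule for multiply matching reads, so reads of near-identical copies may have been split or dropped. Symbols came from the gene name table (52029 of 57010 IDs matched), and strands, lengths, coordinates and sequences from GENCODE M21 (GRCm38), a different build from that of the counts.

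Knockout and wild type, 5 libraries each of 25.7 to 43.3 M counts, were compared in edgeR 4.0.16 (R 4.3.3; quasi-likelihood, robust, TMM, filterByExpr), over all genes, and a gene was called where its adjusted p (Benjamini-Hochberg) was under 0.05. The SE is the log2 fold change divided by the square root of F. CPM in the text are scaled with factors from all 10 libraries where single libraries are given and from 9 libraries in the means without wild-type replicate 5. The factor of that library was 0.584. Shares of counts, which carry no test, use unscaled totals. Intervals are Wilson at 95%. DESeq2 1.42.0, limma-voom (limma 3.58.1), other scalings, no filter, sums or a random block per leading number and leaving out each library were alternatives. The code was tested on simulated data. The members, lists and tests were chosen with earlier results of these data known. Named were all mRNAs and rRNAs, tRNAs past the filter, the 3 tRNAs with the highest mean, Polrmt, Tfam, Lrpprc and the 4 machinery genes with the smallest p, and the 3 nuclear genes most like the mRNA share; mt-Tn was added after its values were seen.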

Additional observations from a re-analysis of the deposited data

Results flagged for a closer look

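Within each group of 5 libraries, each member's CPM and each share was checked for a library far from the other 4. Of 78 such groups, 29 had one, where chance gives about 5%. In 28 of these it was wild-type replicate 5, so they are 1 observation on a library and not separate ones.

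Wild-type replicate 5 lay far above the other wild-type libraries in the CPM of all 16 members tested. It stood at 5592 for mt-Rnr1, 15202 for mt-Rnr2, 41790 for mt-Nd1, 34173 for mt-Nd2 and 90825 for mt-Co1. It stood at 701 for mt-Co2, 69.4 for mt-Atp8, 471 for mt-Atp6, 676 for mt-Co3, 52.4 for mt-Nd3 and 35.5 for mt-Nd4l. It stood at 27767 for mt-Nd4, 15597 for mt-Nd5, 7421 for mt-Nd6, 60102 for mt-Cytb and 239 for mt-Tp. These CPM are raised by the TMM factor of that library, 0.584.

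Unscaled shares of all counts stood apart in the same library, at 17.5% for all 37 genes, 16.3% for the 13 mRNAs, 16.2% for the 7 less copied mRNAs, 0.117% for the copied mRNAs, 1.21% for rRNAs and 0.0142% for tRNAs. By strand they were 0.447% (light) and 17.1% (heavy). Within the mitochondrial counts, its less copied mRNAs were low at 92.3% and its rRNAs high at 6.91%, with rRNA counts at 7.49% of those mRNAs, and mt-Nd2 made up 12.3% of them. Muscle markers took 8.75% of its counts and their part in these values was not tested. The remaining case was mt-Atp6 in knockout replicate 5, at 40.8 CPM, below the 55.0 to 58.1 CPM of the other knockout libraries.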

How the results depend on the processing

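No member was called under any alternative run, with all 10 libraries or without wild-type replicate 5. DESeq2 with all 10 libraries gave the members no adjusted p, so that run did not test them. Every member tested except mt-Rnr1 changed direction when wild-type replicate 5 was left out of the 10. With a library left out of the 10, the fold changes ran from -2.10 to 0.24 (mt-Rnr2), -1.21 to 0.31 (mt-Nd1), -1.65 to 0.16 (mt-Nd2), -1.26 to 0.18 (mt-Co1), -1.37 to 0.33 (mt-Co2), -1.59 to 0.04 (mt-Atp8), -1.53 to 0.26 (mt-Atp6), -1.47 to 0.26 (mt-Co3), -1.64 to 0.25 (mt-Nd3), -1.50 to 0.27 (mt-Nd4l), -1.40 to 0.23 (mt-Nd4), -1.08 to 0.26 (mt-Nd5), -1.12 to 0.43 (mt-Nd6), -1.34 to 0.22 (mt-Cytb) and -1.42 to 0.21 (mt-Tp). The positive ends are the fits without wild-type replicate 5. limma-voom with sample quality weights on all 10 libraries also reversed 12 mRNAs, to 0.06 (mt-Nd1), 0.09 (mt-Nd2), 0.19 (mt-Co1), 0.16 (mt-Co2), 0.08 (mt-Atp6), 0.10 (mt-Co3), 0.09 (mt-Nd3), 0.22 (mt-Nd4l), 0.12 (mt-Nd4), 0.22 (mt-Nd5), 0.24 (mt-Nd6) and 0.12 (mt-Cytb). Without wild-type replicate 5 the reversals were mt-Rnr2 (-0.01) and mt-Atp8 (-0.13) with those weights, mt-Atp8 with the leading number as a block (-0.05), and mt-Nd3 (-0.05) with its nuclear copy added, an alternative chosen after seeing the data. mt-Atp8 ran from -0.35 to 0.22 with a further library left out. The cause was not tested. Over all genes, the 0 called with 10 libraries became 50 with DESeq2 and 17 with limma-voom weights, and 0 to 2 with a library left out (2 without wild-type replicate 5). The 2 called without wild-type replicate 5 became 1 without scaling, 433 with DESeq2, 143 with limma-voom weights, 0 on sums and 0 with a block per leading number, and 0 to 1 with a further library left out. The difference in mitochondrial share was -2.24 points, 0.359 by medians and -4.12 on sums per leading number. No paired analysis was possible because the labels give the groups no shared replicate numbers.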
